A study of Caenorhabditis elegans with 2 samples.

Results

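The genes described here encode protein parts of the splicing machinery of C. elegans. They are the protein-coding genes whose symbols begin with snr, lsm, prp, rsp, uaf, sap or sftb in the Ensembl annotation of the WBcel235 assembly, 42 of the 19973 protein-coding genes on the nuclear chromosomes. Binding of the protein MADF-9 was measured by chromatin immunoprecipitation followed by sequencing in 2 biological replicates of 1 group, with no second condition. Both replicates were whole L4 larvae of strain RW12324 at an age of 48 hours, from cultures synchronised as L1 larvae starved after bleaching. Their madf-9 gene, which lies on chromosome IV, carried a CRISPR insertion of TY1, EGFP and 3xFLAG tags (st12324), and precipitation used an antibody to GFP, although the antibody field of the labels reads madf-9. Both replicates carry the same donor entry, and only their biological replicate numbers tell them apart. All values come from 1 tagged allele, and each mixes all tissues of the animal, so no binding can be assigned to a cell type. No untagged library was analysed here, so pull-down at these promoters without the tagged protein cannot be told apart from binding.

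Splicing removes introns from precursor messenger RNA. Small nuclear ribonucleoproteins (snRNPs), each built from a small nuclear RNA and a ring of Sm or Sm-like proteins, recognise the ends of the intron, and PRP proteins assemble, activate and rearrange the complex. SR proteins, named for their arginine and serine rich tails, help to define exons, and U2AF and SF3b act at the 3′ splice site and the branch point. In C. elegans many messenger RNAs also receive a spliced leader in trans through the same machinery.

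A gene is called bound here when a peak summit lies from 1000 bp upstream to 200 bp downstream of one of its annotated transcript starts. The summits come from the authors' thresholded set of 1637 peaks called between the replicates. Peaks in this set had a scaled score of at least 830 for the irreproducible discovery rate (IDR), which is an IDR of at most 1%. Signal is the authors' strength value for each peak. Neither its scale nor the sequencing depth is known here.

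MADF-9 bound 10 of the 42 splicing factor genes, 23.8% (95% Wilson interval 13.5 to 38.5, which covers counting error only). Of all 19973 protein-coding genes 4.71% were bound, and of the 10896 with a class symbol 5.93%. The bound genes were snr-1, snr-4, lsm-6, lsm-7, prp-19, prp-40, rsp-1, rsp-2, rsp-6 and uaf-2. Replicate 1 alone, through its own thresholded set, gave 7 of these genes, against 3.19% of all genes and 4.07% of those with a class symbol. Replicate 2 alone gave 3 of them, lsm-7, prp-19 and rsp-6, against 2.46% and 3.14%. The genes lsm-6, prp-40 and uaf-2 passed in neither replicate alone. The authors' other set, called on pooled data, gave 9 of the 42 genes, with prp-8 in place of lsm-6 and prp-40, against 4.7% and 5.88%. The bound genes had 10 summits between them, since rsp-1 and rsp-2 share 1 summit and uaf-2 has 2. Their median signal was 92.4, beside 91.994 for all 785 promoter summits, and 5 of the 10 lay above that median.

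The sequences at the summits are shown because a 6-base word recurs in them. Each window is 101 bp long and centred on the summit, on ce11, plus strand, with the bases from the RefSeq copy of the assembly. Capitals mark GACGCA or its reverse complement TGCGTC, and the window at prp-19, the strongest of these peaks, is shown as one that holds neither.
snr-1 (chrIV:17087579-17087679): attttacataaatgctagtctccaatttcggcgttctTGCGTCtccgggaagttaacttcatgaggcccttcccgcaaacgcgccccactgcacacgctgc
rsp-1 and rsp-2 (chrII:11453177-11453277): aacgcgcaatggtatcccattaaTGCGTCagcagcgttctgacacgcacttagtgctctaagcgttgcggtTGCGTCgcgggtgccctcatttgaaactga
rsp-6 (chrIV:7791330-7791430): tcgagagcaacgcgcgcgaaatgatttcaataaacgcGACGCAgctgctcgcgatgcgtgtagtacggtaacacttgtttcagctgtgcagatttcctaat
lsm-7 (chrIV:10933234-10933334): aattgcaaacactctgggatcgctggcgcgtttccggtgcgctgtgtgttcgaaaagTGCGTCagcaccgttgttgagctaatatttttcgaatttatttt
prp-40 (chrIII:9521849-9521949): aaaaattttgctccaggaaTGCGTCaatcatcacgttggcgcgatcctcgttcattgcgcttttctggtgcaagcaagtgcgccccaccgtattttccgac
uaf-2, distal summit (chrIV:17119438-17119538): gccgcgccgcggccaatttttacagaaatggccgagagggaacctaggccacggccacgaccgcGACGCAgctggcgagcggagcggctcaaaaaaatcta
prp-19 (chrIII:5172641-5172741): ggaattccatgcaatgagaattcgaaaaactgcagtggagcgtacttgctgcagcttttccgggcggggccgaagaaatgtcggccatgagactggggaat

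GACGCA, on either strand, was present in 7 of the 10 windows at summits of bound splicing factor genes. The same word was in 16.3% of the windows at all promoter summits, in 13% at all 1637 summits, in 3.25% of flanks centred 200 bp from promoter summits, and in 3.15% of windows centred 200 bp upstream of all gene starts. Flanks of the splicing factor summits held it in 2 of 20 windows, 10%, of which 1 is the window of the distal uaf-2 summit itself, since the uaf-2 summits lie 200 bp apart. It was in 1 of the windows 200 bp upstream of the starts of the 32 unbound splicing factor genes, 3.12%. The seventh window with the word is that of lsm-6, which is not printed. The word was picked out of 8 searched, after the windows had been seen, so its count is a description and carries no test. The words searched first, AGACGCAG and CTGAGCTA, taken from an earlier look at these data, were in 0 of the 10 windows, against 8.15% and 1.53% of promoter summits. Of the other words, AGACGC and AGACGCA were each in 1 window, against 14.1% and 8.79% of promoter summits. GACGCAG was in 2, against 9.43%, and these 3 words overlap GACGCA. TACTGTAG and GGCGCGTC were in 0, against 0.382% and 0.637%. At the bound genes of a second list of splicing genes, described last, GACGCA was in 0 of 11 windows. The mean GC content was 48.7% at the splicing factor summits and 50.2% at all promoter summits, against 34.3% in the windows upstream of all starts. Over whole promoters, 8 of the 10 bound and 14 of the 32 unbound splicing factor genes held the word, where 37.5% of all bound genes and 25% of all protein-coding genes did. The 8 bound genes are those whose summit windows hold the word, with 1 window shared by rsp-1 and rsp-2. Their count over whole promoters therefore repeats the count of windows and adds no further support.

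**Figure D1:**
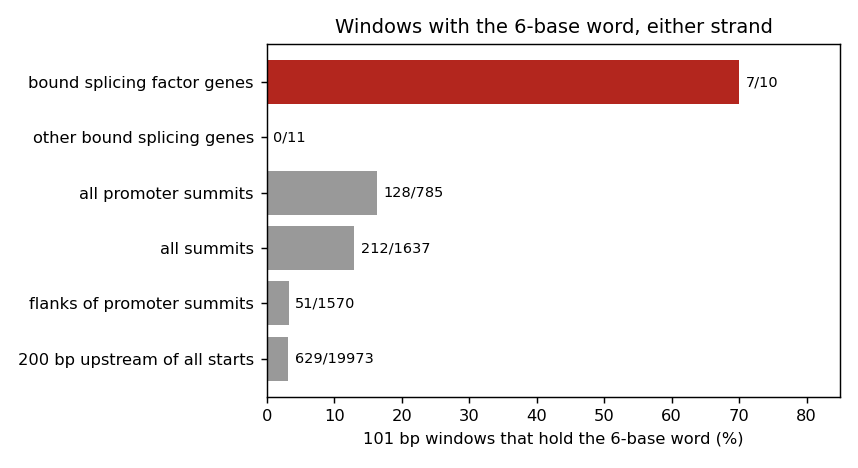
Percent of 101 bp windows that hold GACGCA on either strand (x axis, in %), by kind of window (y axis), with counts beside each bar. The bar for bound splicing factor genes stands at 7 of 10 windows and that for other bound splicing genes at 0 of 11, beside 128 of 785 promoter summits.

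Sm proteins form the ring around most spliceosomal snRNAs, and 2 of the 7 snr genes were bound. The peak of snr-1 (WBGene00004914), which encodes SmD3, spans 17087499 to 17087758 on chromosome IV, with its summit at -420 bp from the start (negative positions are upstream). Its signal was 124, rank 391 of 1637, with 74.1 in replicate 1 and 58.1 in replicate 2. The same summit lies at -191 bp from the divergent gene snx-13, a sorting nexin gene. The peak of snr-4 (WBGene00004917), which encodes SmD2, spans 11979970 to 11980229 on chromosome V, its summit at -377 bp, with a signal of 83.1. The replicates gave 49.998 and 37.1 there. This summit is also 18 bp before the start of an annotated snRNA gene (WBGene00014291, chromosome V, 11980118 to 11980261, plus strand), and inside a noncoding gene, C52E4.14. The signal cannot be divided between snr-4 and these genes, and the region of replicate 2 has its summit 122 bp farther along the chromosome.

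The other Sm genes had ranked regions that did not pass. For snr-2 (SmB) the strongest promoter region had 25.6 in replicate 1 and 28.9 in replicate 2, and in the list between the replicates its best IDR was 3.24%. For snr-6 (SmE) the values were 23.7 and 16.3, for snr-7 (SmG) 30.4 and 12.6, and for snr-5 (SmF) 21.5 and 10.7. The promoter of snr-3 (SmD1) had no ranked region in replicate 1 and 16.4 in replicate 2. In each replicate snr-1 was the highest of the 7 and snr-4 the next.

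LSm proteins form a ring on the U6 snRNA in the nucleus, through LSm8, and a ring that acts in messenger RNA decay in the cytoplasm, through LSm1. Of 7 lsm genes 2 were bound, lsm-6 and lsm-7, whose products belong to both rings. The lsm-7 peak (WBGene00003081; chromosome IV, 10933154 to 10933413) had a signal of 102, with 46.03 in replicate 1 and 55.8 in replicate 2, and was the 1 summit of the 10 with the higher value in replicate 2. It lies at -218 bp from lsm-7 and -81 bp from dnc-1, a dynactin subunit gene on the other strand. The lsm-6 peak (WBGene00003080; chromosome I, 1701071 to 1701330) was weaker, with a signal of 61.7, replicate values of 34.6 and 28.5, and a summit at -160 bp. Its score of 865 was the lowest among the bound genes, just inside the limit of 830. Of the ring-specific genes, lsm-1 had no region in replicate 1 and 10.2 in replicate 2, and lsm-8 had 11.4 and 19.6. The gene lsm-3 reached 35.2 and 29.1, above the values of lsm-6 in both replicates. Its strongest region in the list between the replicates had a signal of 50.4. Its best IDR, 4.77%, belonged to another of its regions, with a signal of 24.2. The remaining genes, lsm-4 and lsm-5, had 20.2 and no region in replicate 1, and 12.7 and 13.1 in replicate 2. In replicate 2 both were below lsm-8.

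PRP genes, named after yeast mutants in precursor RNA processing, held the strongest and several of the lowest values. Of 13 genes 2 were bound. The peak of prp-19 (WBGene00020423), which encodes a ubiquitin ligase of the complex that activates the spliceosome, spans 5172629 to 5172754 on chromosome III. Its signal of 248 ranked 67 of all 1637 peaks and 33 of the 785 promoter summits, and both replicates gave their highest splicing factor value there, 159 and 95.02. The summit lies at -646 bp from prp-19 but at -29 bp from the divergent gene K10D2.5, and at -748 bp from emb-1. The peak of prp-40 (WBGene00014218; chromosome III, 9521769 to 9522028), whose yeast counterpart is a U1 snRNP protein, had a signal of 67.3. Its replicate values were 34.7 and 33.5, and it passed in neither replicate alone. It lies at -176 bp from prp-40 and -439 bp from clu-1.

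Of the unbound PRP genes, prp-8, which encodes the large protein at the heart of the spliceosome, came nearest. It had 49.6 in replicate 1 and 21.7 in replicate 2, a signal between replicates of 70.5, above that of the bound genes prp-40, lsm-6 and uaf-2, and an IDR of 3.61%. The pooled set did include prp-8. The SF3a subunit gene prp-21 had 25.7 and 19.1. By contrast prp-6, prp-9, prp-31 and prp-38 had no ranked region in either replicate, and prp-17, prp-3, prp-18 and prp-39 had one in a single replicate, with values from 8.59 to 19.3. For prp-4 the values were 10.0005 and 8.30.

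Of the 8 SR protein genes 3 were bound, through 2 peaks. The genes rsp-1 (WBGene00004698) and rsp-2 (WBGene00004699) point away from each other with starts 407 bp apart, and 1 peak between them (chromosome II, 11453097 to 11453356) lies in the promoter of both, at -135 bp from rsp-1 and -272 bp from rsp-2. Its signal was 123, with 88.4 in replicate 1 and 31.1 in replicate 2. That ratio of 2.85 between replicates was the widest of the 10 summits and was reached by 0.519% of promoter summits, whose median ratio was 1.202 (quartiles 1.00265 and 1.45). The peak passed in replicate 1 alone but not in replicate 2 alone. The peak of rsp-6 (WBGene00004703; chromosome IV, 7791250 to 7791509), a gene related to the human SRSF3 family, had a signal of 117, replicate values of 67.4 and 46.5, and passed in each replicate alone. Its summit lies at -151 bp from rsp-6 and in no other promoter. The gene rsp-3, the counterpart of human SRSF1, was evenly low with 21.2 and 20.5, and rsp-8, related to Tra2, reached 38.1 and 24.5 with an IDR of 1.55%, the nearest miss of the 32 unbound genes. For rsp-4, the counterpart of SRSF2, replicate 2 alone had a region, with 18.3. Values for rsp-7 were 16.5 in replicate 1 and no region in replicate 2, and rsp-5 had no ranked region in either.

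The uaf, sap and sftb genes, most of them for factors of the 3′ splice site and branch point, had 1 bound gene among 7. Both summits of uaf-2 (WBGene00006698), the small U2AF subunit, lie on chromosome IV, one at -521 bp with a signal of 49.01 and one at -721 bp with 29.1. Each replicate had 1 region there, with 38.6 and 27.6, so the pair of peaks counts as 1 place in the replicates' own lists. The summits are nearer to the divergent gene itsn-1, an intersectin gene, at -394 and -194 bp. The large subunit gene uaf-1 had no ranked region in either replicate. None of the SF3b and SAP genes was bound. For sftb-1, which encodes the SF3B1 protein that holds the branch point, the values were 29.2 and 17.7, and for sftb-6 15.8 and 19.3. In replicate 2 there was no region at sftb-2, sap-49 or sap-140, where replicate 1 had 20.8, 18.5 and 32.8.

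**Figure D2:**
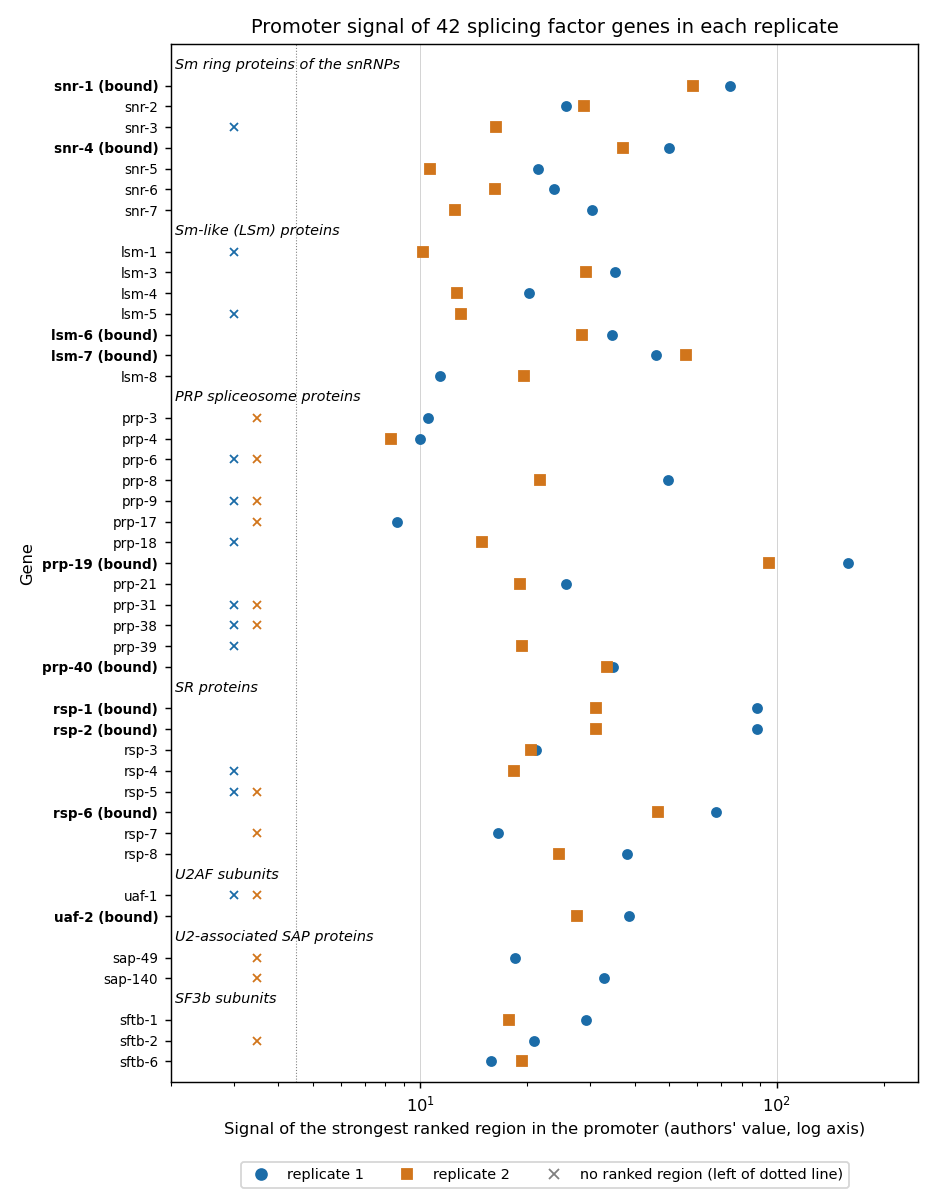
Signal of the strongest ranked region in each promoter (x axis, authors' value on a log axis) for the 42 genes (y axis, grouped by role), with circles for replicate 1, squares for replicate 2 and crosses for no ranked region. Both values of prp-19, 159 and 95.02, lie to the right of all other genes, and 6 genes have no region in either replicate.

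Ranked regions below the threshold give a value for most of the unbound genes. In the replicates' own ranked lists 30 of the 42 genes had a promoter region in replicate 1 and 30 in replicate 2. Of all protein-coding genes 51.3% and 50.9% had one. Among the 42 genes 24 had a region in both replicates and 6 in neither. The shares of all genes are not given for these last counts, and the regions of the 2 replicates need not lie at the same place. In the ranked list between the replicates 38 of the 42 genes had a region, against 69.2%. Each gene was placed by the percent of the 19973 genes with a lower promoter signal, taken as 0 without a region. The median splicing factor gene stood at percentile 76.8 in replicate 1 and 72.5 in replicate 2. Genes above percentile 90 in both replicates were 11 of the 42, where the background was 5.5%. Of these 10 were the bound genes, and the other was lsm-3. Bound genes were called from peaks in these same replicates, so this count largely repeats the bound share and is no separate result. By role the medians were 86.2 and 85.9 for SR genes, 85.98 and 70.4 for Sm genes, 74.7 and 79.97 for LSm genes, and 49.9 and 50.2 for PRP genes. The region shared by rsp-1 and rsp-2 counts for both genes in the SR median. The median SR gene also had 2 annotated starts, against 1 for Sm, LSm and PRP genes, and each start can add to the promoter searched. Groups of 2 or 3 genes are too small for such a median. Across the 24 genes with a region in each replicate, Spearman's rho between the signals was 0.807, and Pearson's r between their log2 values was 0.804. Both values are across genes, which share the same 2 libraries and in the case of rsp-1 and rsp-2 the same region. Genes with a region in a single replicate are left out, and the bound genes were called on reproducibility between these replicates. Neither value therefore measures agreement over all 42 genes.

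**Figure D3:**
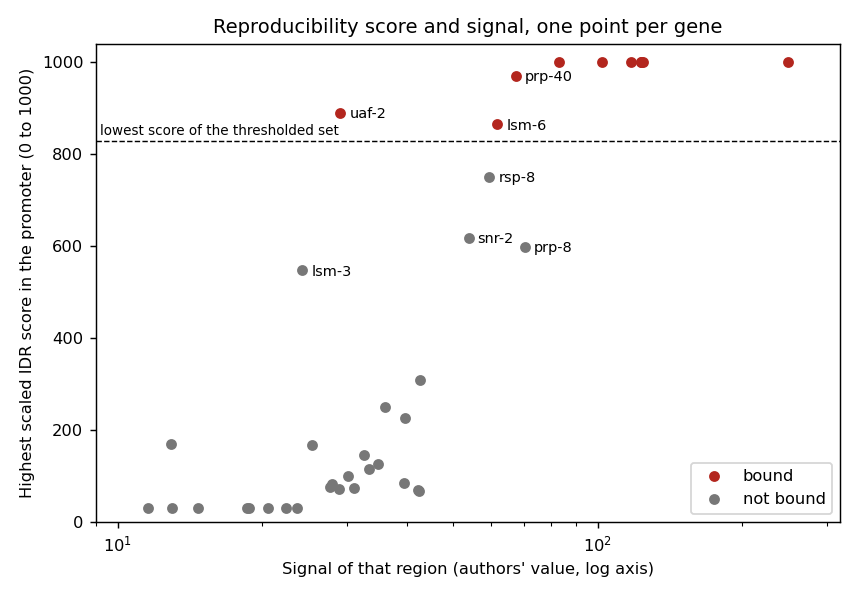
Highest scaled IDR score in each promoter (y axis, 0 to 1000) against the signal of that region (x axis, authors' value, log axis), in the ranked list between the replicates, 1 point per gene with a region. The dashed line is the lowest score of the thresholded set, 830, with lsm-6 at 865 and uaf-2 at 890 just above it and rsp-8 at 751 just below.

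Most of the bound splicing factor promoters were shared with another gene. Of the 10 summits, 8 lay in the promoters of 2 or more genes, while 26.5% of the 785 promoter summits did. In 7 of the 10 a partner was a gene outside the list. Both counts hold the 2 uaf-2 summits, which share the partner itsn-1 and 1 region in each replicate. For 5 of the 10 bound genes, lsm-7, prp-19, rsp-2, snr-1 and uaf-2, the start of another protein-coding gene was nearer to the summit. In the whole genome the count of bound genes was 941, and 735 when each summit was given to its nearest start only. The remaining 5, lsm-6, prp-40, rsp-1, rsp-6 and snr-4, had the nearest protein-coding start, although the snRNA gene beside snr-4 starts nearer to its summit. Over pairs of a splicing factor gene and a summit, the median position was -272 bp from the start. These pairs count the summit of rsp-1 and rsp-2 once for each gene, and the median is the value of rsp-2. All pairs of a bound gene and a promoter summit had the same median, -272 bp. A tRNA gene lay within 250 bp of 0 of the 10 summits. This is no particular trait of these genes, since few bound genes depend on such summits. Without them 869 of all protein-coding genes were bound, against 941 with them.

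**Figure D4:**
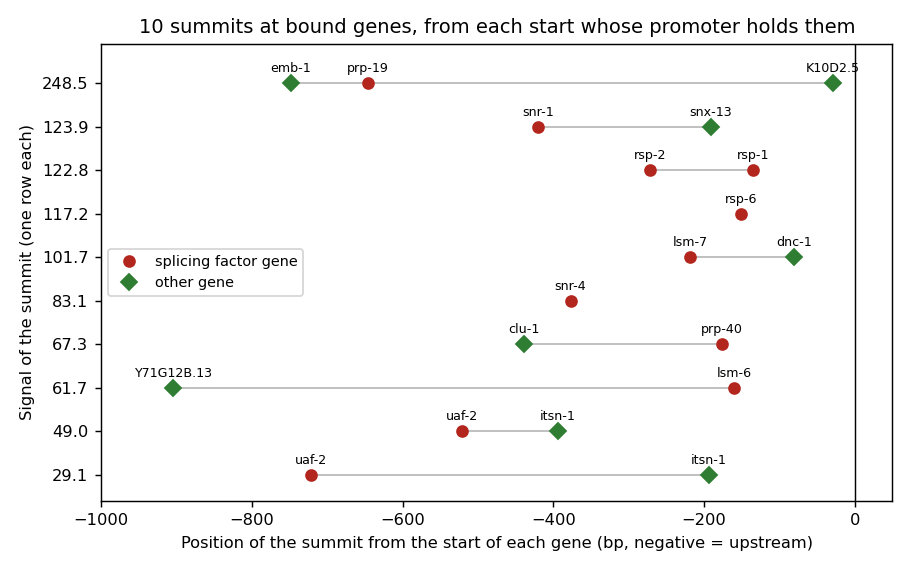
Position of each of the 10 summits from the gene starts whose promoters hold it (x axis, bp, negative upstream), in order of signal (y axis). Circles are splicing factor genes and diamonds other genes, and the summit of signal 248 lies at -29 bp from K10D2.5 but at -646 bp from prp-19.

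Divergent arrangement was common among the splicing factor genes. A gene on the opposite strand started within 1000 bp upstream for 26 of the 42, 61.9%, against 17.7% of all protein-coding genes and 35.6% of all bound genes. Genes with such a neighbour had the higher bound share in the whole genome too, 9.47% against 3.69% without one. Of the 26 splicing factor genes with a divergent start 7 were bound, 26.9%, and of the 16 without one 3 were bound, 18.75%. Both shares lie above the share of all genes with the same arrangement, on small counts and with no test. The part of promoter arrangement in the bound share was not tested further.

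**Figure D5:**
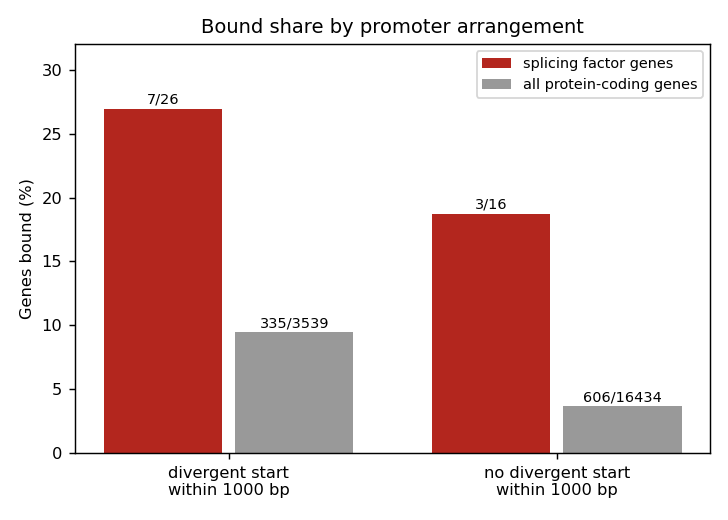
Percent of genes bound (y axis) with and without a divergent start within 1000 bp (x axis), for splicing factor genes and for all protein-coding genes, with counts above the bars. Splicing factor genes stand at 7 of 26 and 3 of 16, all protein-coding genes at 335 of 3539 and 606 of 16434.

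A second list held other splicing genes, chosen by function rather than by symbol. It is not complete, since snu-13 and luc-7L3 are not in it, so its bound share depends on the genes listed. Of its 76 genes 11 were bound, 14.5% (95% Wilson interval 8.28 to 24.1). The background was 4.71% of all protein-coding genes and 5.93% of those with a class symbol. Among the 39 spliceosome genes 6 were bound, among the 28 splicing regulators 5, and among the 9 genes of the exon junction, the cap and snRNP assembly 0. The highest signal was that of mog-4, a DEAH-box helicase gene, with 609 (332 and 268 in the replicates). Next came hrpa-1, an hnRNP A gene, with 243 (135 and 105), and smu-1 with 119 (61.4 and 54.8), whose product acts in alternative splicing with that of smu-2, at 105 (51.04 and 47.6). The gene plrg-1, a partner of the PRP-19 complex, had 109 (65.2 and 44.3), the SR protein kinase gene spk-1 106 (74.6 and 29.5), the hnRNP K gene hrpk-1 102 (58.2 and 46.2) and usp-39 101 (44.4 and 58.2). Replicate 1 alone gave 10 bound genes of this list and replicate 2 alone 7, against 3.19% and 2.46% of all genes. Of the genes with a class symbol these shares were 4.07% and 3.14%. The difference between the bound shares of the 2 lists was not tested.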

How the data were processed

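The deposited peak lists for both replicates of the single group are on ce11, per the labels. The authors deposited ranked and thresholded lists with a signal per peak, a scaled IDR score and −log10 q values, of which the q values were not used. Peak caller, aligner and versions: not given in the sources used here. Per the deposited records, each thresholded list was derived from 1 further file that the ranked lists were not. Of 1752 ranked regions at the score of the main set 115 are not in that set, and 0 of these lie in a promoter of the 42 genes. Genes came from Ensembl release 115 (WBcel235, the assembly ce11 names). Summits were assigned with Python 3.11.15 and pandas 2.3.3, and replicate signals taken from the ranked region that overlaps a peak most (1 bp or more), or from the strongest region with its summit in the promoter. The assignment was checked on 200 simulated summits. Wilson intervals used scipy 1.17.1.

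The members, lists, words and settings were chosen with earlier results of these data known. No test was made, since there is 1 group and genes are not replicates. All 42 genes are accounted for. By a naming rule, bound genes were given in full, then the 6 unbound genes with the highest mean percentile and those with the lowest. The 6 genes with no region in either replicate tied as the lowest, and all were named. The rule also took the 8 strongest bound genes of the other splicing list, of whose 79 symbols 76 matched. Alternatives covered the promoter window, peak set, IDR and signal thresholds, overlap, choice of start, tRNA-near peaks and each replicate alone.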

Additional observations from a re-analysis of the deposited data

How the results depend on the processing

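The count of 10 bound splicing factor genes fell to 4 at an IDR of at most 0.001, to 6 among the 50% of peaks with the higher signal and to 5 with the nearest start only, where the share of all genes bound fell from 4.71% to 2.43%, 2.72% and 3.68%. It was 3 to 7 from a single replicate. For the other splicing list 11 fell to 7 at an IDR of at most 0.001, against the same 2.43%, and was 7 to 10 from a single replicate. Under the remaining alternatives these counts stayed within 1.5 times the reported ones. At an IDR of at most 0.05 there were 14 bound genes, with lsm-3, prp-8, rsp-8 and snr-2 added, against a background of 7.38%. The median signal of 92.4 became 101.7 with a window of 500 and 100 bp, 67.3 at an IDR of at most 0.05, 120.5 at 0.001, 122.8 in the upper 50% and 83.1 with the nearest start. The median position of -272 bp became -197 bp with the window of 500 and 100 bp, -377 bp with that of 2000 and 500 bp, -339.5 bp in the pooled set, -287 bp and -319 bp at an IDR of at most 0.05 and 0.001, -245 bp in the upper 50% and -160 bp with the nearest start, and -267 to -209 bp from a single replicate. The median percentile became 67.2 in replicate 1 and 69.3 in replicate 2 with the narrow window, and 76.1 in replicate 2 with the wide one. With 1 mismatch allowed 4 of the 10 windows held AGACGCAG or CTGAGCTA, where 22.8% of promoter summits did. In 2 alternatives added after seeing the data, GACGCA was in 4 of the 10 windows within 25 bp of the summit and in 7 within 100 bp. The share of all promoter summits is not given at these 2 widths, so these counts have no background. The causes were not tested. Depth is unknown and limits how far an unbound gene can be read. No paired analysis was possible because there is 1 group.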

Other observations

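Some unbound splicing factor genes had peaks nearby but outside their promoters. Past the 3′ end of sap-49, whose human counterpart is SF3B4, a pair of summits lay 38 and 239 bp beyond the annotated end (chromosome II), with signals of 14.8 and 65.1 and in no promoter. Inside rsp-8 a summit with a signal of 76.8 lay in an exon, at -284 bp from the annotated end of the gene. The summit at plrg-1, with a signal of 109, lay at -2119 bp from prp-38, and that of sqd-1, with 192, lay at -2661 bp from lsm-8. Widening the promoter to 2000 bp upstream and 500 bp downstream added rsp-4 and sap-140, whose nearest summits, at -1281 and -1218 bp, lie in the promoters of ndx-6 and cgh-1.

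Several divergent pairs hold 2 splicing genes. Of these, rsp-1 and rsp-2 share a peak, while snr-3 and rsp-5, with starts 404 bp apart, had no bound member, and neither had a region in replicate 1. Also unbound were rsp-7, which starts 580 bp from snu-13, a gene of the U4 snRNP, and sftb-6, which starts 377 bp from luc-7L3.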
